A study of Sus scrofa with 20 samples.

Results

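The genes described here encode complexes I to IV of the respiratory chain, ATP synthase, the SLC25A carriers, and the TIMM and TOMM protein import machinery of mitochondria. They were chosen by platform gene symbol (symbols starting with NDUF, SDH followed by A to D, UQCR, COX followed by a digit, ATP5, SLC25A, TIMM or TOMM), leaving out NDUFV2 and NDUFS1. For each gene the rule took 1 probe set, that with the greatest mean across the 20 arrays. The rule was set with earlier results of these data known. It found 102 of the 6765 genes that carry a single symbol on the array.

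Kidney RNA came from pigs that had been randomized, 10 to neurologic death (ND) and 10 to a control procedure, with 1 array per animal number. ND animals received a burr hole, catheters and anaesthesia, and in addition a subdural balloon was filled until death by neurologic criteria was reached. Control animals received the burr hole, catheters and anaesthesia without balloon inflation. Every animal of both groups was ventilated for 6 h, received 0.9% saline in boluses of 2 cc/kg to hold the mean arterial pressure over 35 mmHg, and had kidney tissue snap-frozen at laparotomy. The labels give no strain, age or sex, and describe a pair of specimens per animal without saying which was arrayed.

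The respiratory chain passes electrons from NADH and succinate to oxygen through complexes I to IV and pumps protons across the inner mitochondrial membrane, and ATP synthase uses that gradient to make ATP. Carriers of the SLC25A family exchange ADP, ATP, phosphate, acylcarnitines and other metabolites across the inner membrane. Nearly all mitochondrial proteins are encoded in the nucleus and enter through the TOM complex of the outer membrane, small chaperones of the intermembrane space and the TIM complexes of the inner membrane. In the kidney the proximal tubule is dense in mitochondria, because reabsorption of solutes runs on ATP from respiration.

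All signals are log2 values per probe set, and all differences are ND minus control on that scale. Array medians lay between 5.09 and 5.35, and their median was 5.28 over ND arrays and 5.17 over control arrays. The background, read from probe sets that match no kidney RNA, reached 2.79. Precision is limited by the number of arrays. The label of the tissue was checked against 10 proximal tubule markers, whose mean signal was 10.01 to 11.77 in ND kidneys and 11.48 to 12.04 in control kidneys. Of the 102 genes, 99 read above background on all arrays, while COX8H and SLC25A51 read at background on all of them and TOMM34 on 1 control array. Animal numbers were not balanced, since 7 of 10 ND animals and 1 of 10 controls had numbers up to 100.

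In ND kidneys 9 of the 102 genes were lower and 1 was higher at an adjusted p under 0.05. The falls were those of TIMM8A, SLC25A4, SLC25A17, SLC25A33, SDHAF2, NDUFAF1, NDUFAF3, TOMM20 and NDUFC2, and the rise was that of NDUFAF2. Among all genes tested, 4.55% were lower and 5.44% higher by the same rule, against 8.82% and 0.98% of these. Assembly factors, carriers and import proteins, the rise of NDUFAF2 among them, made up 9 of the 10 genes that passed. A structural subunit of complex I was the other one. By group the 102 genes hold 30 complex I subunits, 3 complex I assembly factors, 5 complex II genes (SDHAF2 among them) and 2 complex III genes. They also hold 8 complex IV subunits, 1 complex IV assembly factor, 14 ATP synthase genes, 21 carriers, 11 TIMM and 7 TOMM genes. The count of falls became 17 without Control_199, where 5.45% of all genes were lower, and 47 (with 1 rise) when each array was shifted to the same median, where 24.3% of all genes were lower. With a term for animal numbers up to 100 there were 5 falls and 0 rises, and the shares of all genes were 1.91% lower and 0.872% higher.

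The median difference over the 102 genes was -0.14, with quartiles of -0.25 and -0.043, and the median over all genes was -0.017. Negative differences were found for 89 of the 102 genes (87.3%), against 54.3% of all genes. At an unadjusted p under 0.05, 39 genes (38.2%) were lower and 3 (2.94%) were higher, where 15.7% and 14.3% of all genes were. No gene had ND values that lay wholly apart from the control values, which occurred in either direction for 0.591% of all genes. The median was -0.13 for the 66 genes with a mean signal above 10, and -0.021 for the 1487 genes of the whole array above that level. The 95% interval of the difference included 0 for 60 of the 102.

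**Figure D1:**
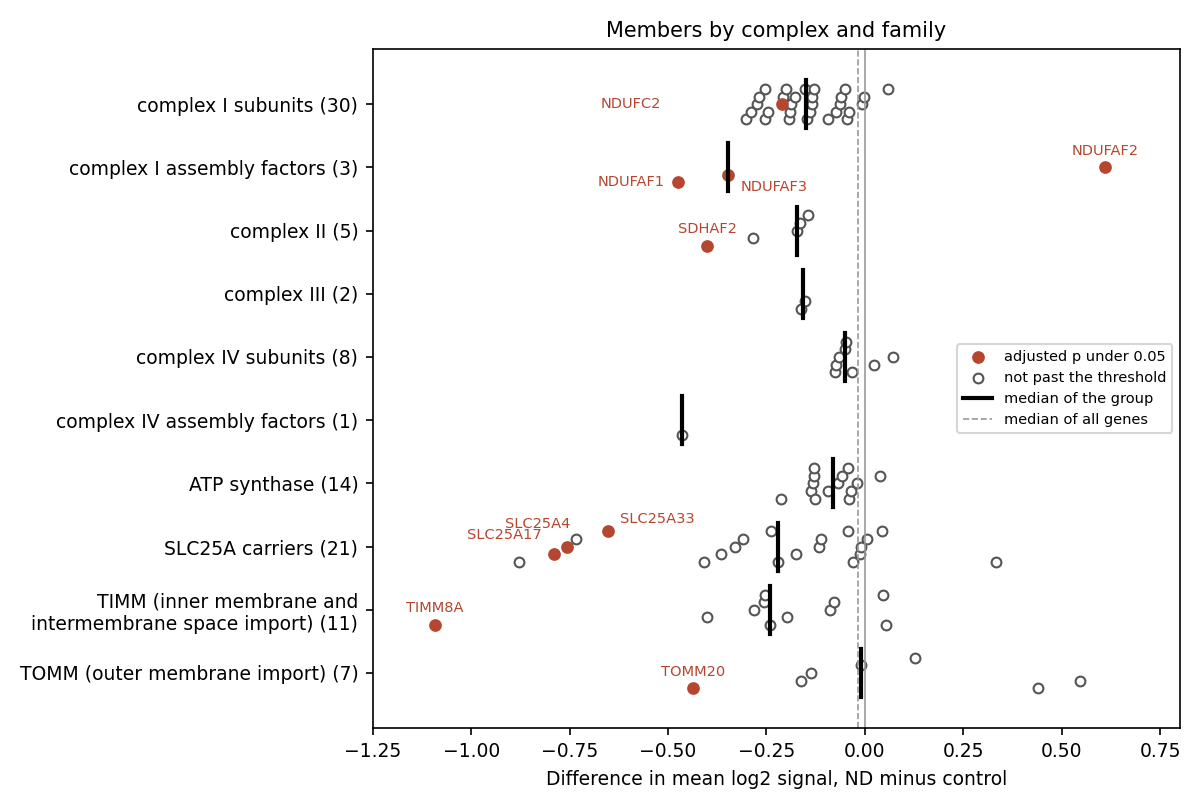
Each point is 1 gene, placed by its difference in mean log2 signal (ND minus control) on the horizontal axis and by complex or family down the page, with the number of genes in brackets. Filled points are the 10 genes past an adjusted p of 0.05, bars are medians of each group (from -0.47 for the single complex IV assembly factor to -0.0088 for the TOMM genes), and the dashed line is the median of all genes at -0.017.

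Averaged over the 102 genes, the signal per animal was 10.23 to 10.47 in ND kidneys (mean 10.32 ± 0.08, SD, n = 10) and 10.29 to 10.65 in control kidneys (10.48 ± 0.12, SD, n = 10). Each of the 10 ND animals lay under the control mean, and 3 of them lay under the lowest control, Control_199. In tissue of mixed cell types, fewer cells of a type and less RNA per cell cannot be told apart. Beside this, 4 of 10 proximal tubule markers fell (SLC2A2, SLC7A9, HNF4A and PCK1) and 6 did not pass. Of those 6, SLC3A1 (0.53, limma adjusted p = 0.0526) and LRP2 (0.25) had positive differences. Those of AQP1 (-0.026), MIOX (-0.20), SLC22A8 (-0.23) and SLC22A6 (-0.50) were negative. Of 11 leukocyte markers 6 rose while 1 fell (CD163, -2.04). By the same rule 4.55% of all genes were lower and 5.44% higher. Among the 6, CD3E read above background on 5 ND and 0 control arrays, and LCK on 10 ND and 8 control arrays. The leukocyte list averaged 4.63 to 6.10 in ND kidneys and 4.74 to 5.32 in control kidneys, with its marker S100A8 at background on all arrays. Of 8 endothelial markers 1 rose (CLDN5) and 7 did not pass, and of 5 markers of fibroblasts and smooth muscle 1 rose (PDGFRB) and 4 did not pass. Of 4 adipose markers 1 fell (FABP4), and 2 others (ADIPOQ and LIPE) were at background on all arrays. Of 4 distal nephron markers 0 passed. KCNJ1 (-0.50), AQP3 (-0.54) and SCNN1B (-0.49) had negative differences (limma adjusted p = 0.0758, 0.106 and 0.0876). SCNN1A was at background on all arrays. Of 1 podocyte, 4 red cell and 6 muscle markers 0 passed. The part of these cell types in the differences was not tested.

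Complex I takes electrons from NADH and is the largest complex of the chain. Of its 30 measured subunits 1 fell, 0 rose and 29 did not pass, but 29 of 30 differences were negative, with a median of -0.15 and a range of -0.30 to 0.058. The mean over the 30 subunits was 10.87 to 11.17 per animal in ND kidneys and 10.96 to 11.38 in control kidneys, and all 10 ND animals were under the control mean. The fall was that of NDUFC2, an accessory subunit of the membrane arm (Entrez gene 100513030). Its signal had a lowest, median and highest value of 11.53, 11.68 and 11.97 in ND kidneys, against 11.66, 11.98 and 12.11 in control kidneys. The groups overlapped, with ND_31 the highest ND animal and Control_02 and Control_184 the lowest controls. The difference was -0.21 ± 0.06 (SE) with an adjusted p of 0.0479, and the call was lost in 14 of the 20 fits that left out 1 animal (adjusted p 0.0561 to 0.0864). It was also lost with quantile normalization (adjusted p = 0.117), with dim probe sets left out, with an intensity trend in the variance model, with the animal number term and without ND_47 and ND_92.

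Several other subunits of complex I lay close to the threshold without passing it. NDUFAB1, the mitochondrial acyl carrier protein, differed by -0.19 (adjusted p = 0.0528), and the membrane arm subunit NDUFA11 differed by -0.27 (adjusted p = 0.0598). NDUFA8, an accessory subunit on the intermembrane space side, had the most negative difference of the 30, at -0.30 ± 0.11 (SE, adjusted p = 0.0889). Its lowest, median and highest signals were 10.61, 11.12 and 11.37 in ND kidneys and 10.87, 11.38 and 11.84 in control kidneys. For these 3 subunits all 10 ND animals were under the control mean, and the groups overlapped for each. The accessory subunit NDUFB4, whose probe set was the brightest of the 30, differed by -0.14 (adjusted p = 0.141). NDUFS6, an accessory subunit of the peripheral arm, was the sole subunit with a positive difference, 0.058 (95% interval -0.08 to 0.19), and it turned to -0.031 when each array was shifted to the same median.

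The NDUF symbols include 3 assembly factors of complex I, which help to build it and are not part of the finished enzyme. All 3 passed, in opposite directions. NDUFAF1, which acts with ECSIT in joining membrane arm intermediates (Entrez gene 100524355), had a lowest, median and highest signal of 6.25, 6.44 and 6.81 in ND kidneys, against 6.64, 6.93 and 7.53 in control kidneys. Of the ND animals all 10 were under the control mean and 7 under the lowest control. The difference was -0.48 ± 0.10 (SE), or 0.719 times the control signal, with an adjusted p of 0.00624. NDUFAF3, an early assembly factor (Entrez gene 100156018), read 9.48, 9.72 and 10.01 in ND kidneys and 9.73, 10.06 and 10.38 in control kidneys, again with all 10 ND animals under the control mean. Its difference was -0.35 ± 0.08 (SE), with an adjusted p of 0.0104. Both calls were kept in each fit that left out 1 animal and with the animal number term.

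NDUFAF2, a late assembly factor related to a complex I subunit (Entrez gene 100738470), was the single gene of the 102 that rose. Its lowest, median and highest signals were 6.72, 6.97 and 8.11 in ND kidneys, against 5.66, 6.42 and 7.01 in control kidneys. Every ND animal was over the control mean, 4 of them over the highest control, and ND_31 stood well above the rest of its group. The difference was 0.61 ± 0.18 (SE), or 1.53 times the control signal, with an adjusted p of 0.0403. The call was lost in 10 of the 20 fits that left out 1 animal (adjusted p 0.0539 to 0.0728). It was also lost when probe sets were averaged (adjusted p = 0.0705), with the animal number term (0.383) and without ND_47 and ND_92 (0.0793). It rests on a probe set whose suffix marks it as able to match transcripts of more than 1 gene. The other probe set of NDUFAF2 differed by -0.11 and had means of 2.62 in ND kidneys and 2.73 in control kidneys, under the background level.

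Because the 3 factors were read on the same arrays, the difference between 2 of them within an animal does not change when a whole array is shifted. In all 6 such pairs were compared, 2 here and 4 among carriers and import chaperones, after their values had been seen. The p-values are adjusted over the 6 and do not allow for that choice. NDUFAF1 minus NDUFAF2 was -0.58 ± 0.39 in ND kidneys and 0.51 ± 0.33 in control kidneys (SD, n = 10 each), and the ND values all lay under the lowest control. The groups differed by -1.09 ± 0.16 (SE; two-sided permutation test, adjusted p = 3e-05). NDUFAF3 minus NDUFAF2 was 2.67 ± 0.40 in ND kidneys and 3.62 ± 0.42 in control kidneys (SD, n = 10 each), a difference of -0.96 ± 0.18 (SE; permutation test, adjusted p = 3e-05). The smallest p these permutations can give is 2e-05 before adjustment.

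Complex II, succinate dehydrogenase, feeds electrons from the citric acid cycle into the chain. Of its 4 subunits and the assembly factor SDHAF2, 1 fell, 0 rose and 4 did not pass, with a median difference of -0.17 and 5 of 5 differences negative. SDHAF2, which helps to attach the flavin cofactor to SDHA (Entrez gene 100519294), was the one that fell. Its lowest, median and highest signals were 8.10, 8.29 and 8.58 in ND kidneys, against 8.49, 8.72 and 8.995 in control kidneys. All 10 ND animals were under the control mean and 7 were under the lowest control. The difference was -0.40 ± 0.08 (SE), or 0.757 times the control signal, with an adjusted p of 0.00553, and it did not pass with the animal number term. A dimmer probe set of SDHAF2 differed by -0.054 and read under background in both group means.

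The catalytic and membrane subunits of complex II did not pass. SDHC, a membrane anchor, differed by -0.28 ± 0.12 (SE, adjusted p = 0.130), with 5 ND animals under the lowest control. SDHB, the iron-sulfur subunit, differed by -0.14 (adjusted p = 0.192), and its second probe set differed by 0.26, so its direction is not settled here. The mean over the 5 genes was 11.41 to 12.04 per animal in ND kidneys and 11.78 to 12.17 in control kidneys. ND_47 was the lowest ND animal and ND_198 the highest, and 9 of 10 ND animals were under the control mean. Among the 8 animals with the highest numbers, 3 in the ND group and 5 controls, the median difference of complex II was -0.010.

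Complex III, which hands electrons from ubiquinol to cytochrome c, was represented by UQCRB and UQCR10. The probe set of UQCRB has a suffix that marks it as able to match transcripts of more than 1 gene. Neither gene passed, with differences of -0.15 for UQCRB and -0.16 for UQCR10 (adjusted p = 0.196 and 0.284).

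The 8 measured subunits of complex IV, cytochrome c oxidase, showed the narrowest range of differences among the groups with 5 or more genes. None passed, none had an unadjusted p under 0.05, and the differences ran from -0.075 to 0.072 with a median of -0.049. COX7C, whose probe set was the brightest, read 14.00, 14.33 and 14.59 (lowest, median and highest) in ND kidneys and 14.04, 14.21 and 14.38 in control kidneys. Its difference was 0.072 (95% interval -0.06 to 0.21). This turned to -0.017 when each array was shifted to the same median and to -0.16 when its probe sets were averaged. A dimmer probe set of COX7C, with means of 4.61 in ND kidneys and 5.01 in control kidneys, differed by -0.40 and did not pass. NDUFA4, named as a complex I subunit but found in complex IV, differed by -0.072 (95% interval -0.19 to 0.04).

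Tissue isoforms of complex IV were also examined. The broadly expressed isoforms COX6A1 and COX7A2 differed by -0.065 (95% interval -0.16 to 0.03) and -0.075 (95% interval -0.21 to 0.06). COX7A1, known as the heart and skeletal muscle isoform, read 11.96 to 12.57 in ND kidneys and 12.06 to 12.81 in control kidneys, far above background in every animal. Its difference was -0.048 (95% interval -0.23 to 0.13). Of the 6 muscle markers measured, 4 (MYL1, MYH7, TNNT3 and TNNI2) were at background on all arrays. CKM read above it in 1 ND animal, at 3.71. DES read above it on all arrays, at 5.21 to 5.99 in ND kidneys and 5.22 to 6.23 in control kidneys. The cell type behind the COX7A1 signal was not tested. COX8H, the muscle form of subunit VIII, was at background on all arrays and gives no level in either group.

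COX10, which makes a precursor of the haem A group of complex IV, was the one assembly factor measured. Its lowest, median and highest signals were 5.89, 6.37 and 6.86 in ND kidneys, against 6.17, 6.84 and 7.36 in control kidneys. The difference of -0.47 ± 0.15 (SE) did not pass, with an adjusted p of 0.0717, although 9 of 10 ND animals were under the control mean.

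ATP synthase closes the pathway, and 0 of its 14 measured genes passed. Their median difference was -0.081, 13 of 14 differences were negative and 3 had an unadjusted p under 0.05, all of them lower in ND. ATP5A1, the alpha subunit of the catalytic head, had the smallest p of the 14, with -0.13 ± 0.05 (SE, adjusted p = 0.103). Its signal was 13.67, 13.93 and 14.03 (lowest, median and highest) in ND kidneys and 13.84, 14.05 and 14.14 in control kidneys. ATP5B, the catalytic beta subunit, differed by -0.13 with a 95% interval of -0.33 to 0.07. ATP5S, a coupling factor that is not a core subunit, had the most negative difference, -0.21 (adjusted p = 0.179). ATP5J, a stalk subunit, differed by 0.039 and turned to -0.051 when each array was shifted to the same median.

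**Figure D2:**
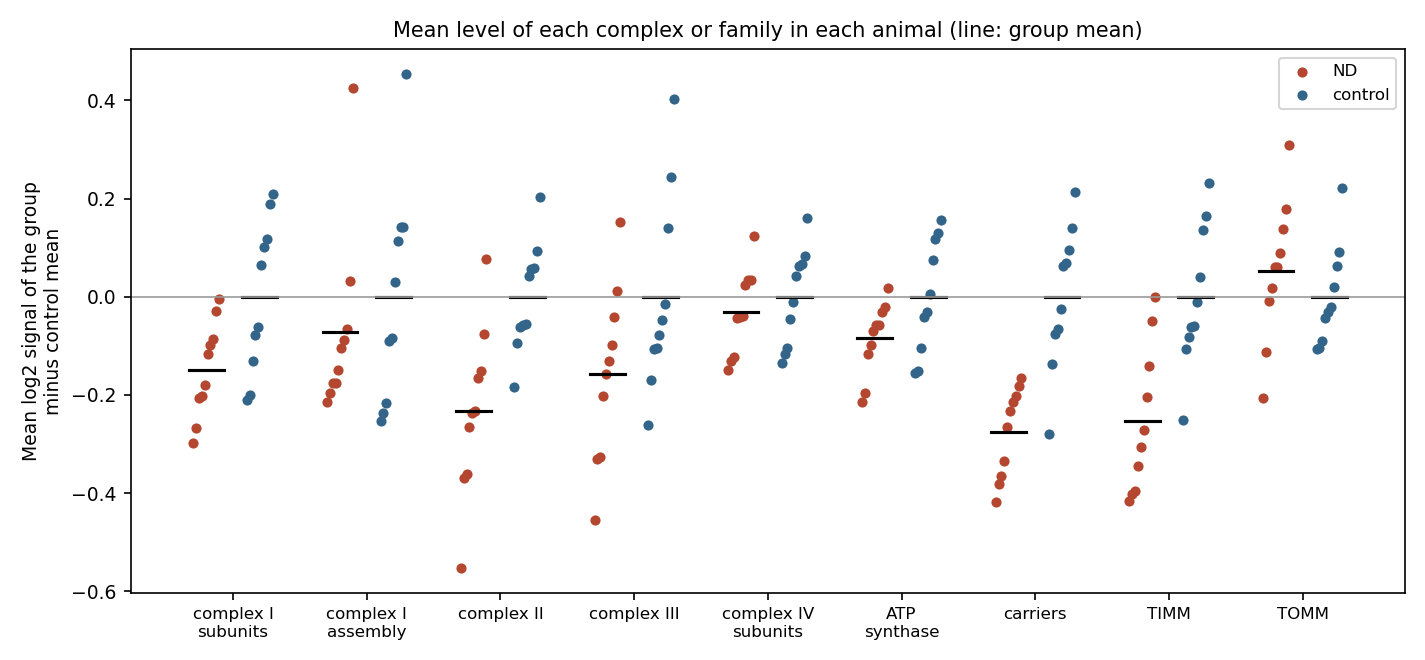
Each point is 1 animal, and the vertical axis gives the mean log2 signal over the genes of a complex or family minus the control mean of that group, with ND animals left of controls and a line at each group mean. All 10 ND animals lie under the control mean for complex I subunits, carriers and TIMM genes, while 6 of 10 do for complex IV subunits and 3 of 10 for TOMM genes.

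Among the 21 measured SLC25A carriers 3 fell, 0 rose and 18 did not pass, with a median difference of -0.22. The mean over the carriers was 8.44 to 8.69 per animal in ND kidneys and 8.58 to 9.07 in control kidneys, with 4 ND animals under the lowest control and all 10 under the control mean. SLC25A4, the ADP/ATP carrier known in human as the heart and muscle type (Entrez gene 100517196), read 11.10, 11.70 and 12.18 (lowest, median and highest) in ND kidneys, against 12.07, 12.52 and 12.73 in control kidneys. ND_31 alone reached into the control range, and ND_47 was the lowest. The difference was -0.76 ± 0.12 (SE), or 0.592 times the control signal, with an adjusted p of 0.00109.

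The other two ADP/ATP carriers measured, SLC25A5 and SLC25A6, did not pass and had intervals on both sides of 0. SLC25A5 read 12.79, 13.06 and 13.25 in ND kidneys and 12.48, 13.16 and 13.35 in control kidneys (lowest, median and highest). Its difference was -0.013 (95% interval -0.25 to 0.22), and its sign changed in 6 of the 20 fits that left out 1 animal. SLC25A6 differed by 0.043 (95% interval -0.17 to 0.25), turning to -0.047 when each array was shifted to the same median. Within animals, SLC25A4 minus SLC25A5 was -1.38 ± 0.25 in ND kidneys and -0.64 ± 0.39 in control kidneys (SD, n = 10 each). The groups differed by -0.74 ± 0.15 (SE; permutation test, adjusted p = 0.000144). SLC25A4 minus SLC25A6 differed between the groups by -0.80 ± 0.12 (SE; permutation test, adjusted p = 3e-05), with all 10 ND animals under the lowest control. In both pairs the gap between the groups was larger than the SD of either group. Both pairs were chosen with their values in view, so they are no separate evidence for the fall of SLC25A4.

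SLC25A17 differs from most of its family in that its protein sits in peroxisomes, where it carries coenzyme A and nucleotide cofactors. Its gene (Entrez gene 100517713) read 10.42, 11.18 and 11.55 (lowest, median and highest) in ND kidneys, against 11.20, 11.80 and 12.45 in control kidneys. No ND animal reached the control mean, and 5 were under the lowest control, Control_199. The difference was -0.79 ± 0.16 (SE), or 0.578 times the control signal, with an adjusted p of 0.00547.

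SLC25A33, a carrier of pyrimidine nucleotides (Entrez gene 100517764), read 8.36, 9.03 and 9.99 in ND kidneys, against 9.28, 9.78 and 10.17 in control kidneys. Of the ND animals 7 were under the lowest control, while ND_47 was above 7 of the 10 controls. The difference was -0.65 ± 0.18 (SE, adjusted p = 0.0356), and the call was lost in 12 of the 20 fits that left out 1 animal (adjusted p 0.0528 to 0.0639) and with the animal number term (0.167). A dimmer probe set of the gene read under background in both group means.

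Some carriers had large differences with a wide spread. SLC25A48 had the most negative difference of the carriers, -0.88 ± 0.30 (SE), and did not pass (adjusted p = 0.0851). Its signal was 6.53, 7.66 and 8.69 in ND kidneys and 7.07, 8.38 and 9.75 in control kidneys (lowest, median and highest), and the difference was -0.11 among the 8 animals with the highest numbers. SLC25A20, the carnitine and acylcarnitine carrier of fatty acid oxidation, had the widest spread of the 102 genes in either group, with an SD of 0.89 in ND kidneys and 0.92 in control kidneys. Its difference of -0.73 did not pass (adjusted p = 0.211), with Control_156 and Control_157 at 7.89 and 8.17 and the other 8 controls from 9.15 to 10.37. SLC25A21, the oxodicarboxylate carrier, had the most positive difference, 0.33 (adjusted p = 0.250).

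**Figure D3:**
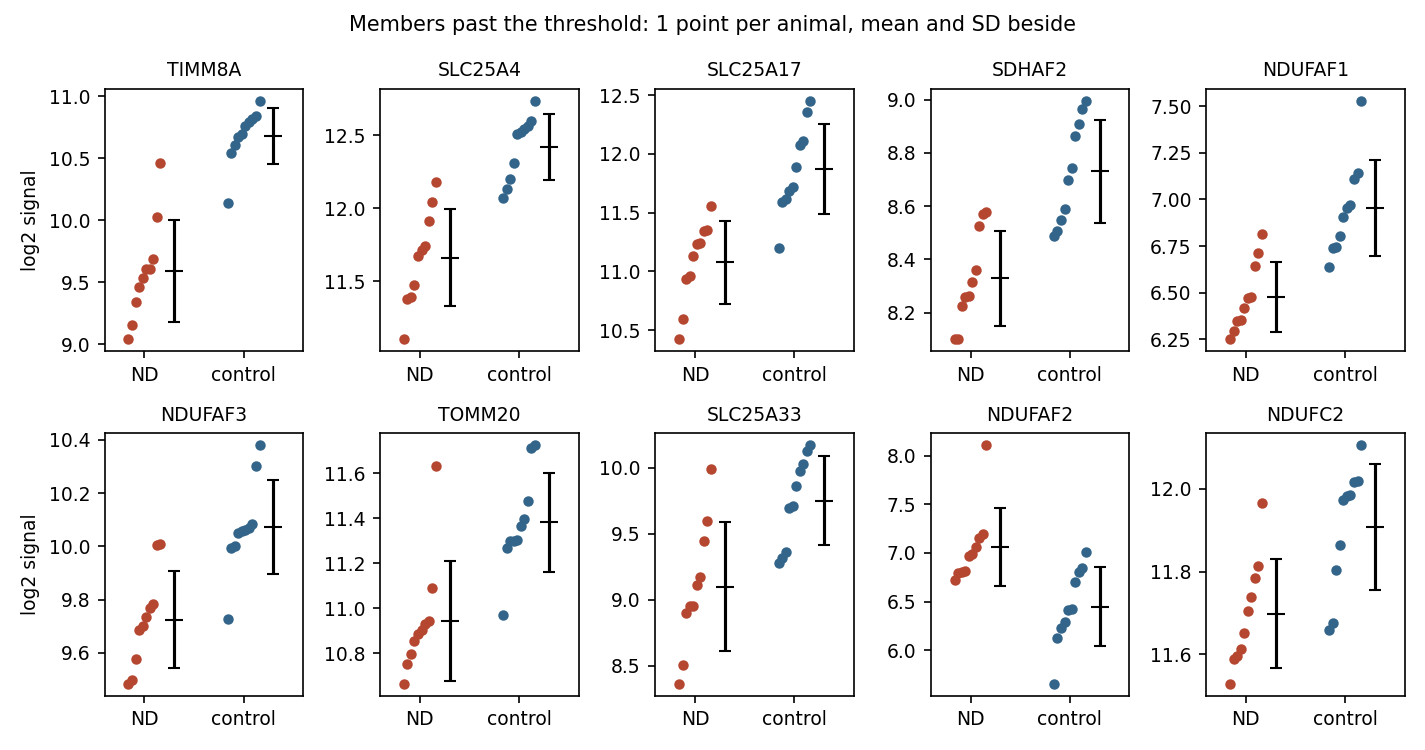
For each of the 10 genes past the threshold, points are animals, the vertical axis is log2 signal (a scale of its own in each panel), and the bar beside each group is its mean with the SD. ND lies left of control, the 9 falls and the rise of NDUFAF2 are in order of p, and some ND and control values overlap in every panel.

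The 11 measured TIMM genes, which serve import into and across the inner membrane, had a median difference of -0.24. One fell, 0 rose and 10 did not pass, while 7 had an unadjusted p under 0.05, all lower in ND. TIMM8A, which works with TIMM13 as a chaperone for membrane proteins in the intermembrane space, had the largest difference of the 102 genes. TIMM8A (Entrez gene 100517443) read 9.04, 9.57 and 10.47 (lowest, median and highest) in ND kidneys, against 10.14, 10.73 and 10.96 in control kidneys. Of the ND animals 9 were under the lowest control, Control_199, and ND_47 was the exception. The difference was -1.09 ± 0.15 (SE), or 0.469 times the control signal, with an adjusted p of 0.000161, and the call was kept in each fit that left out 1 animal.

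TIMM8B, the close relative of TIMM8A, and TIMM13, its partner, did not pass. TIMM8B read 10.91, 11.44 and 11.87 in ND kidneys and 11.25, 11.75 and 11.94 in control kidneys (lowest, median and highest), a difference of -0.28 ± 0.11 (SE, adjusted p = 0.119). TIMM13 read 9.81, 10.32 and 10.82 in ND kidneys and 9.75, 10.30 and 10.71 in control kidneys, a difference of 0.055 (95% interval -0.20 to 0.31) whose sign turned when each array was shifted to the same median. Within animals, TIMM8A minus TIMM8B differed between the groups by -0.81 ± 0.15 (SE; permutation test, adjusted p = 0.0003). TIMM8A minus TIMM13 was -0.74 ± 0.22 in ND kidneys and 0.41 ± 0.32 in control kidneys (SD, n = 10 each), with no overlap between the groups. That difference was -1.15 ± 0.12 (SE; permutation test, adjusted p = 3e-05). Both of these pairs were likewise chosen with their values in view and are no separate evidence for the fall of TIMM8A.

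For all 6 pairs the comparison was repeated in the 8 animals with the highest numbers, 3 ND and 5 control. The differences were -0.59 to -1.14, and each had a two-sided exact permutation p of 0.0357 before adjustment. That is the smallest p that this number of animals allows. The 8 animals were among those in view when the pairs were chosen, so the repeat is not an independent check. TIMM44, which anchors the import motor to the inner membrane, differed by -0.40 ± 0.13 (SE) and did not pass (adjusted p = 0.0751).

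**Figure D4:**
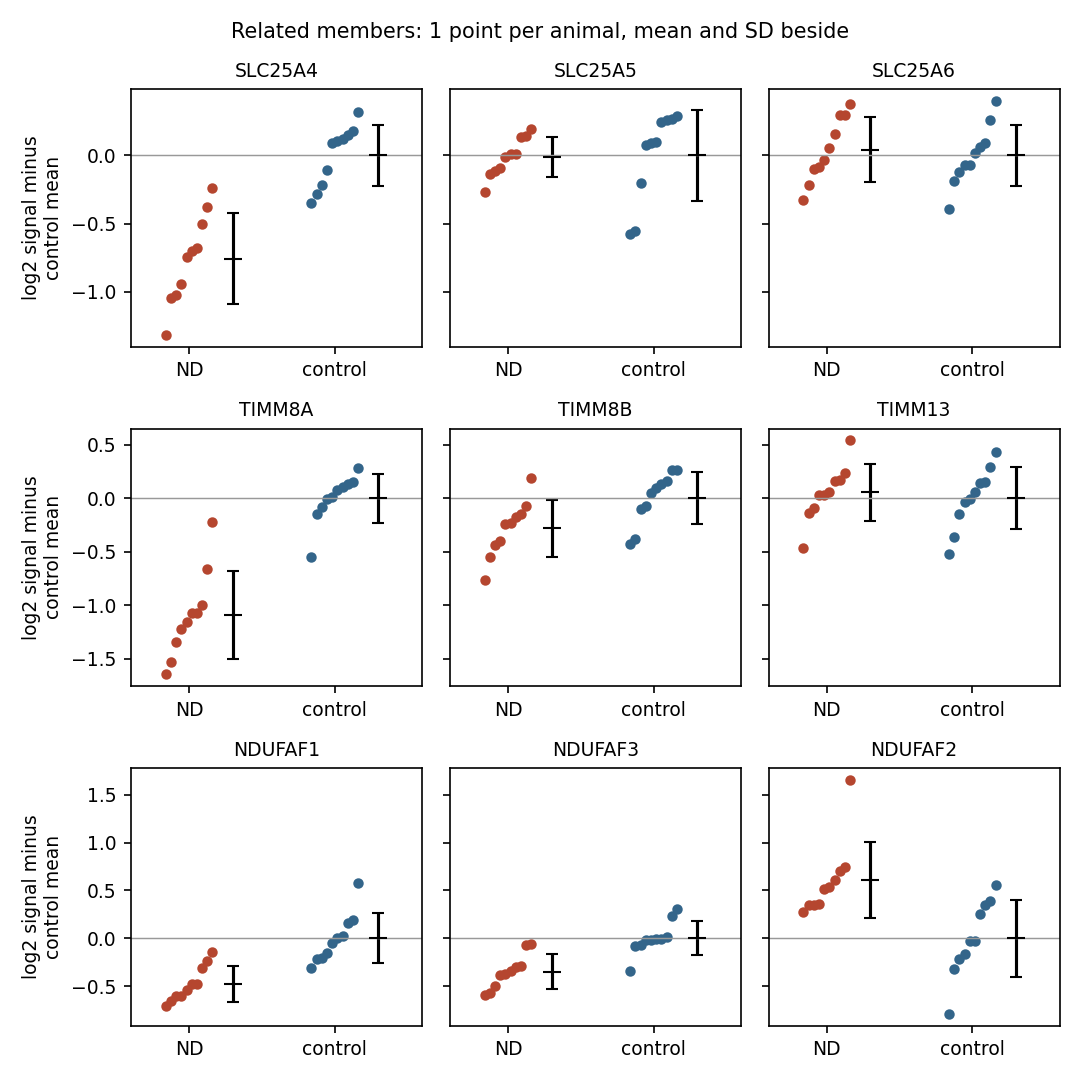
Points are animals, the vertical axis is log2 signal minus the control mean of the gene (shared along each row), and the bar beside each group is its mean with the SD. ND lies left of control. The rows show the ADP/ATP carriers, the small intermembrane space chaperones and the assembly factors of complex I, and in each row the first gene is shifted down in ND while another is near 0 (SLC25A6, TIMM13) or shifted up (NDUFAF2).

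The 7 measured TOMM genes differed in direction, with a median of -0.0088. One fell, 0 rose and 6 did not pass, and at an unadjusted p under 0.05 there were 2 lower and 2 higher. TOMM20, the receptor that binds the presequence of most imported proteins (Entrez gene 100152814), read 10.66, 10.89 and 11.63 (lowest, median and highest) in ND kidneys, against 10.97, 11.33 and 11.72 in control kidneys. Of the ND animals 8 were under the lowest control, and ND_31 stood above the other ND animals and above the control mean. The difference was -0.44 ± 0.11 (SE), or 0.738 times the control signal, with an adjusted p of 0.0170. It did not pass with the animal number term or when ND_47 and ND_92 were left out together.

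TOMM34, a cytosolic chaperone of precursor proteins, had the most positive TOMM difference, 0.55 ± 0.17 (SE), and did not pass (adjusted p = 0.0567). Its signal was dim, at 3.25, 3.54 and 4.36 in ND kidneys and 2.35, 3.27 and 3.57 in control kidneys (lowest, median and highest). Each ND animal was over the control mean and 5 were over the highest control. TOMM40L, a paralogue of the import pore, differed by 0.44 (adjusted p = 0.126). TOMM5, a small subunit of the pore complex, had the brightest TOMM probe set and differed by -0.14 (adjusted p = 0.250).

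The differences were not spread evenly over animals. In the ND group ND_31 had the highest value for 31 of the 102 genes and ND_22 the lowest for 24. Among controls, Control_199 had the lowest value for 36 genes and Control_157 the highest for 30. The fit without Control_199 gave 17 falls, against 9 with it, and the cause was not tested.

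Other genes of mitochondria were taken from lists that share no gene with the 102. The lists hold 188 genes, of which not all were measured. The measured genes gave 10 falls, 3 rises and 121 that did not pass, with a median difference of -0.16. By the same rule 4.55% of all genes tested were lower and 5.44% higher, with a median of -0.017. In the citric acid cycle and pyruvate list 3 of 21 fell, among them PDHA1 and PDHB, the alpha and beta subunits of the first enzyme of the pyruvate dehydrogenase complex. PDHA1 differed by -0.76 ± 0.20 (SE, adjusted p = 0.0242), PDHB by -0.29 (adjusted p = 0.0272) and OGDH, a subunit of the oxoglutarate dehydrogenase complex, by -0.43 (adjusted p = 0.0223). None of 9 genes for electron carriers and coenzyme Q passed, with a median of -0.30 and a range of -0.57 to -0.046.

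Of 10 assembly factors outside the symbol rule 3 fell. ECSIT, the partner of NDUFAF1, read 8.19, 8.40 and 8.53 (lowest, median and highest) in ND kidneys, against 8.45, 8.75 and 8.91 in control kidneys, a difference of -0.33 ± 0.06 (SE, adjusted p = 0.00125). All 10 ND animals were under the control mean for ECSIT, as they were for NDUFAF1. FOXRED1, another assembly factor of complex I, differed by -0.63 (adjusted p = 0.0484), and TACO1, which activates translation of a complex IV subunit, differed by -0.69 (adjusted p = 0.00554).

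In the list of import and quality control genes 1 of 17 fell, DNAJC19, which belongs to the import motor of the inner membrane, with -0.48 ± 0.13 (SE, adjusted p = 0.0277). Of 66 genes for the mitochondrial genome, its expression and biogenesis 3 fell and 3 rose, where 4.55% and 5.44% of all genes did. All 6 encode proteins of the mitochondrial ribosome, as do most genes of that list, which takes in every MRPL and MRPS symbol. MRPL14 rose by 0.55 ± 0.10 (SE, adjusted p = 0.00181), MRPL32 by 0.34 and MRPS26 by 0.28, while MRPL43, MRPL44 and MRPS15 fell by 0.25, 0.44 and 0.22. None of 11 genes for outer membrane channels, shape and removal passed, and UCP2 was at background on all arrays.

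**Figure D5:**
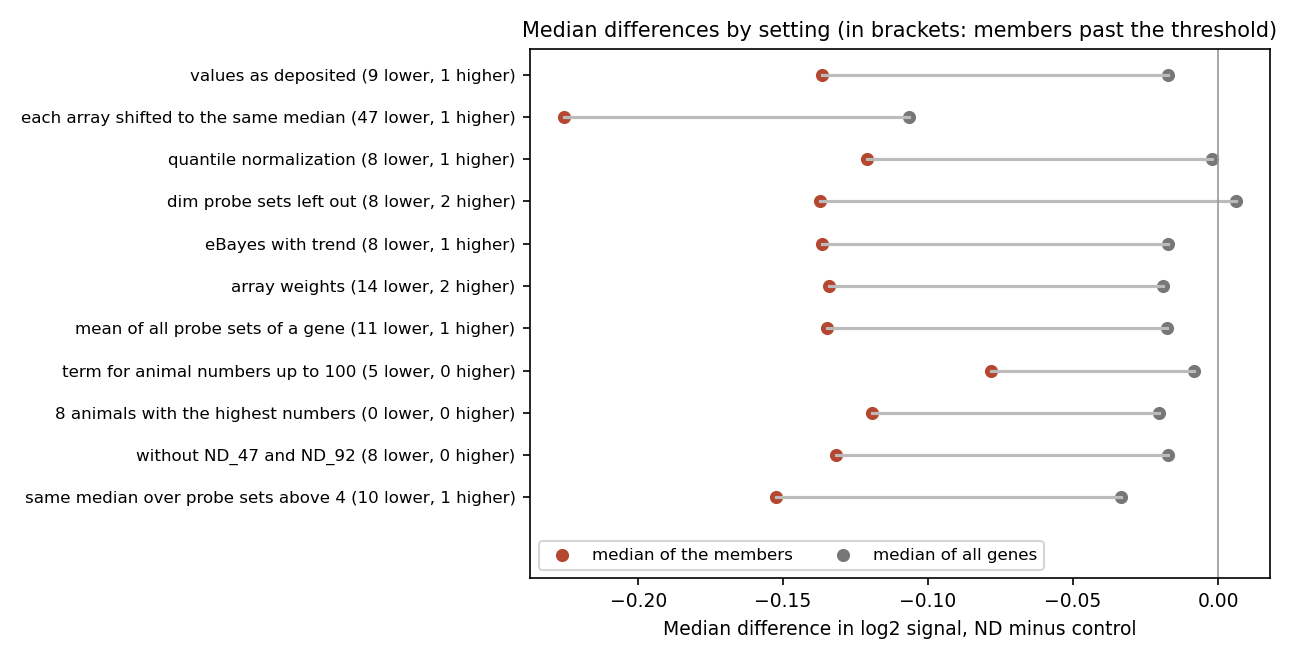
Each line is 1 way of processing the values, with the median difference of the 102 genes (red) and of all genes (grey) on the horizontal axis in log2 units, ND minus control. Numbers in brackets are the genes of the 102 past the threshold in each direction, from 0 lower and 0 higher in the 8 animals with the highest numbers to 47 lower and 1 higher with equal array medians.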

How the data were processed

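Affymetrix porcine arrays, in 1 colour, held kidney RNA of 20 pigs, and per the labels' protocols 250 ng of TRIzol-extracted RNA went into each biotin labelling. The deposited values, 1 per probe set and array, were taken as log2 signals from their range of 0.88 to 16.2. Background correction, summarization and normalization are not given in the sources used here and could move the balance of falls and rises. Groups and animal numbers came from the titles; each array was taken as 1 animal.

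Of 24123 probe sets 124 control probe sets were left out. Platform annotation gave 1 symbol to 10069 of the other 23999, several to 198 and none to 13732; 5 probe sets with several symbols, of which 1 fits the rule, were not used. Entrez IDs of 102 of 102 genes matched the RefSeq table (Sscrofa11.1), with 0 differing symbols. No coordinates or sequences were used.

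All 23999 probe sets were fitted with limma 3.58.1 (lmFit, eBayes without trend) in R 4.3.3, tested on simulated data, with Benjamini-Hochberg adjustment over all of them and a threshold of 0.05. Background is the upper end of 23 tag and tryptophan control probe sets. Pairs of genes used two-sided permutation tests (scipy 1.17.1, 1e+05 resamples, exact for the 8 animals with the highest numbers).

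Genes, lists and alternatives were chosen with earlier results of these data known. Named genes are those past the threshold, the smallest p, brightest, largest rise and largest fall of each group, the ADP/ATP carriers and complex IV isoforms. NDUFAB1, NDUFA11, NDUFA1, NDUFA4, SDHC, SLC25A20, TIMM44 and TOMM40L fall outside it and were picked with their values in view. Alternatives covered scaling, dim probe sets, variance model, array weights, probe set summary, animal numbers, subsets of animals and the threshold.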

Additional observations from a re-analysis of the deposited data

Results flagged for a closer look

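In 6 of 88 groups of 10 values 1 animal stood apart from the rest, with a gap to its nearest neighbour of more than 46.6% of the range of the group; chance alone gives about 1 group in 20. ND_31 had the highest ND value in 4 of the cases. These are not separate cases, since the mean of the complex I assembly factors contains NDUFAF2 and all groups of values come from the same animals. It read 8.11 for NDUFAF2 (next ND animal 7.19), 13.96 for COX6A1 (13.80), 11.63 for TOMM20 (11.09) and 8.25 for the mean of the 3 complex I assembly factors (7.86). ND_47 had the lowest ND value for SDHB, 12.59 (next 12.996). Control_199 had the lowest control value for TIMM8A, 10.14 (next 10.54).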

How the results depend on the processing

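No paired analysis was possible because the ND and control groups share no animal numbers. Leaving out 1 animal in turn gave 7 to 17 falls and 0 to 2 rises among the 102 genes (17 falls without Control_199). Among the other mitochondrial genes it gave 7 to 16 falls and 2 to 3 rises (16 without ND_31, ND_198 or Control_199). In those fits 3.61% to 5.45% of all genes were lower and 3.93% to 6.4% were higher. With equal array medians there were 47 and 56 falls (all genes 24.3% lower). With array weights there were 14 and 20 falls and 2 rises among the 102 (all genes 5.59% lower and 5.87% higher). At an adjusted p under 0.10 there were 19 and 28 falls and 2 rises among the 102. The share of all genes at that looser threshold was not computed, so those counts cannot be set against it. Dim probe sets left out gave 2 rises (all genes 7.75% higher), and leaving out ND_47 and ND_92 gave 0 (all genes 4.24% higher). The animal number term gave 5 and 4 falls and 0 and 1 rises (all genes 1.91% and 0.872%). The 8 animals with the highest numbers, 3 ND and 5 control, gave 0 of each (limma; all genes 0.177% and 0.148%), and medians of -0.010 for complex II and -0.13 for TOMM. The cause of these shifts was not tested.

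The median of the 102 genes was -0.078 to -0.23 under every alternative run and lay below that of all genes each time, by 0.07 with the animal number term. The median of complex IV subunits was 0.0038 with that term.

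Under equal array medians 97 of the 102 differences were negative. Among the genes named by the rule, the following ones that did not pass changed sign. Equal array medians gave NDUFS6 -0.031, COX7C -0.017, ATP5J -0.051, SLC25A6 -0.047 and TIMM13 -0.034. Quantile normalization gave SLC25A5 0.016, and array weights TIMM13 -0.026. Averaging probe sets gave NDUFS6 -0.0035, SDHB 0.056 and COX7C -0.16. The number term gave COX7A1 0.043, ATP5B 0.051, ATP5J -0.078, SLC25A6 -0.066 and SLC25A5 0.015. The 8 highest-numbered animals gave SDHB 0.050, COX7A1 0.11, ATP5B 0.037, SLC25A5 0.14 and TIMM13 -0.17. Without ND_47 and ND_92, SLC25A5 was 0.032 and TIMM13 -0.0034. Leaving out 1 animal gave -0.078 to 0.019 for SLC25A5, -0.00097 to 0.087 for SLC25A6 and -0.0034 to 0.11 for TIMM13.

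With averaged probe sets the rise was TOMM34, in place of NDUFAF2. The calls of TIMM8A, SLC25A4, SLC25A17, NDUFAF1 and NDUFAF3 were lost only in those 8 animals (adjusted p 0.0654 to 0.278), among the alternatives run. The 6 pairs kept their direction and their side of the threshold in all 25 alternatives each. All 25 reuse animals whose values were seen when the pairs were chosen, so they are not independent checks. The scaling with equal medians over probe sets above a mean signal of 4 was chosen after seeing the data. An alternative planned for linear intensities did not apply. For COX8H and SLC25A51, signal at background allows no statement on level.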

Other observations

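Of the 102 genes 24 had more than 1 probe set. Of their 27 other probe sets 10 had a mean under the background level, where a sign or a missed threshold carries no information. Of the 17 above it, 12 had the same sign as the one used and 0 passed the threshold (limma). SDHB was among those with opposite signs, with -0.14 for the brighter probe set and 0.26 for the dimmer one, as was NDUFA1, a membrane arm subunit of complex I, with -0.01 and 0.43.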
